A study of Mus musculus with 13 samples.

Results

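The early answer of Kdm3b knockout (KO) cells to a reprogramming treatment was measured by comparing day 2 with day 0, gene by gene. The members are the 4 libraries whose titles give the knockout at day 2 (replicates A and B) and at day 0 (replicates A and B), of 13 libraries in all, and every gene in the files was considered. The cells were mouse pre-iPSCs, embryonic fibroblast (MEF) derivatives that have been taken part of the way towards induced pluripotent stem cells. Single-end libraries of total RNA were made with a TruSeq kit. The base medium was one for embryonic stem cells (ESCs), containing 15% fetal bovine serum and the cytokine LIF, to which treated cells had added ascorbic acid at 50 µg/mL, CHIR-99021, an inhibitor of the kinase GSK3, and PD-0325901, an inhibitor of the kinase MEK (together AA+2i). Medium with the compounds was renewed every 2 days, and the split of the cultures at day 4 came after the libraries compared here. The 2 KO libraries at day 0 are titled DMSO although their treatment label reads AA+2i, and they were taken as the untreated start. Wild-type (WT) cells at the same days, also 2 libraries a day, are described below only to show where the knockout differed. Their libraries, and the later ones of both genotypes, were also part of the fit behind the KO p-values. The KO calls therefore depend in part on them. The labels do not say which exons were removed, whether the knockout line is 1 clone, or whether A and B were separate cultures, so the p-values measure only the spread between these samples, which may be technical.

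KDM3B removes methyl groups from lysine 9 of histone H3 (H3K9), a mark of silent chromatin, and belongs to a family of dioxygenases that need iron and are helped by ascorbic acid. GSK3 marks the Wnt effector beta-catenin for destruction, so that its inhibitor lets beta-catenin switch on Wnt target genes. MEK activates the kinase ERK, whose target genes fall when MEK is inhibited, and naive pluripotent stem cells are held in place by LIF together with this pair of inhibitors.

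The 4 KO libraries held 22283033 (day 0 A), 20144526 (day 0 B), 20851653 (day 2 A) and 14891294 (day 2 B) expected counts, within the range of the 12 pre-iPSC libraries, 14891294 to 26430050. Of 20325 genes in the files, 14324 had enough counts to be tested. Levels are given as CPM, expected counts scaled to the TMM-adjusted library size, with A before B in each pair of values. Replicates A and B stood apart within each day: the B minus A differences of the 14324 genes correlated at 0.812 between KO day 0 and KO day 2, a description across genes that share their libraries. The difference followed transcript length. Among genes of at least 5 CPM, the median log2 ratio of B to A was -0.95 at day 0 and -1.02 at day 2 for 709 genes with transcripts under 1000 bases, and 0.51 and 0.58 for 1104 genes over 6000 bases. Day 2 was compared with day 0 within each letter, by a letter term in the fit, as set for this comparison. The day 2 change had a median between -0.02 and 0.00 in all 5 length classes. The share of these genes called changed (adjusted p under 0.05) still rose with length, from 23.6% under 1000 bases to 37.8% over 6000. Of the genes used to mark fibroblasts, the cells of origin, some were near 0 and others were not. Col1a1 and Dcn reached at most 0.197 and 0.0662 CPM, Postn was at 0, and Thy1 was at 0 in both day 0 libraries and at most 0.397 CPM at day 2. Fn1, Vim and S100a4, which are less specific to fibroblasts, were well expressed at day 0 (values below), and the whole mesenchymal list summed to 2363 and 4895 CPM at day 0 and 2992 and 7787 CPM at day 2. The pluripotency factor genes Pou5f1, Sox2 and Klf4, by contrast, were highly expressed at day 0 (values below).

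Kdm3b itself fell further in the knockout during the first 2 days. It had 44.4 (A) and 65.1 (B) CPM at day 0 and 19.04 (A) and 29.7 (B) CPM at day 2. Both day 2 libraries lay below both day 0 libraries, and the ratio was close in the 2 letters (log2 fold change -1.17, SE 0.226, adjusted p = 0.00126, and 0.121 without the letter term). In WT cells Kdm3b went from 182 and 249 to 148 and 171 CPM, which was not called (log2 fold change -0.42, adjusted p = 0.145), and the difference between the genotypes in this change did not pass either (-0.76, adjusted p = 0.169). The KO libraries thus kept a signal for the gene at both days, and which parts of the transcript it came from cannot be read from totals per gene. The authors' deposited TPM values for Kdm3b, which divide by transcript length, were 9.72 (A) and 20.83 (B) in KO at day 0 and 4.05 and 9.58 at day 2, against 41.89 and 83.68 and then 35.35 and 54.75 in WT.

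By day 2, 4225 of 14324 genes (29.5%) had changed in KO at an adjusted p under 0.05 in edgeR's quasi-likelihood test with Benjamini-Hochberg adjustment, 2319 higher (16.2%) and 1906 lower (13.3%). At least a 2-fold change was seen for 970 of the higher genes (6.77% of those tested) and 490 of the lower genes (3.42%). Of the 4225 genes 4224 had the same sign in both letters, and 2813 had no overlap in CPM between the days, a condition that 32.0% of all tested genes met. The calls were made on these same libraries with a letter term. Both counts thus follow in part from the calls and are no separate support for them. Without the letter term the fit called 915 genes (6.39%), 576 higher and 339 lower, and all 915 were among the 4225 with the same sign. The common coefficient of variation between replicates was 0.0899 with the letter term and 0.266 without it. The count of 4225 fell to 2319 without KO day 0 A, to 2599 without KO day 0 B and to 2728 without KO day 2 B. Below, the p without the letter term is printed beside a gene with its own values wherever it ends the call. Counts of list members below are to be read against 16.2% higher and 13.3% lower over all tested genes. The lists and their members were chosen with earlier results of these data known. A share above these values therefore describes a list and is no test of it. As the libraries are of bulk RNA, fewer cells of a kind and less RNA in each cell cannot be told apart.

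**Figure D1:**
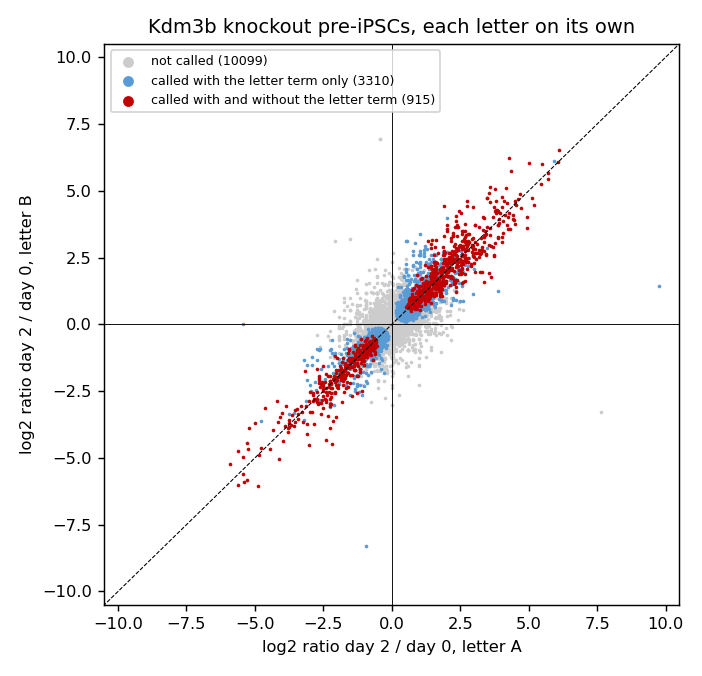
Log2 ratio of day 2 to day 0 in letter A (x axis) and letter B (y axis) for 14324 genes of Kdm3b KO cells, each point a gene. Ratios are from edgeR's log2 CPM with a prior count of 2. Genes called changed with and without the letter term (red, 915) and with it only (blue) lie along the diagonal, and uncalled genes (grey) gather around 0. The calls were made on the same libraries as the ratios, so the 2 are not independent.

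Most targets of ERK signalling fell. Of 32 tested members, 1 rose, 19 fell and 12 were not called (0 and 12 called without the letter term), with a median log2 fold change of -0.71 against 0.01 over all tested genes. Dusp6, which encodes a phosphatase that switches ERK off and is itself an ERK target, had 108 (A) and 79.6 (B) CPM at day 0 and 10.7 (A) and 9.40 (B) CPM at day 2 (log2 fold change -3.22, SE 0.133, adjusted p = 9.12e-10). Dusp4, another phosphatase of the same kind, had 69.7 and 80.7 CPM at day 0 and 8.54 and 10.9 CPM at day 2 (log2 fold change -2.96, SE 0.194, adjusted p = 6.71e-08). The ETS transcription factor gene Etv4 had 149.7 and 155 CPM at day 0 and 41.4 and 36.1 CPM at day 2 (log2 fold change -1.98, SE 0.104, adjusted p = 7.61e-09). In these 3 genes the day 2 libraries were all far below the day 0 libraries, and A and B lay close together. Spry1 and Spry4, feedback inhibitors of receptor tyrosine kinase signalling, went from 9.20 and 11.7 to 1.08 and 1.12 CPM (-3.22, adjusted p = 8.63e-07) and from 101 and 143 to 39.1 and 55.4 CPM (-1.37, adjusted p = 5.43e-06). Egr1, an immediate early transcription factor, went from 77.5 and 147 to 6.48 and 14.4 CPM (-3.46, adjusted p = 5.68e-05, and 0.0962 without the letter term), with B higher than A at each day. Phlda1, a pleckstrin-domain gene induced by growth factors, fell by 1.81, and Areg, a ligand of the EGF receptor, by 1.27 on the log2 scale. The other members that fell were Spry2, Mafk, Ccnd1, Etv1, Spred1, Etv5, Epha2, Egr2, Junb, Spred2 and Fos, and of these Junb, Spred2 and Fos lost the call without 1 or another KO library of these days (adjusted p up to 0.209, 0.191 and 0.128). Epha4, an ephrin receptor gene, was the one member that rose (1.15, adjusted p = 0.00058, and 0.321 without the letter term). Among the 12 that were not called, Dusp5 and Dusp7 had log2 fold changes of -0.48 (adjusted p = 0.135) and 0.15 (adjusted p = 0.424).

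Growth factor ligands and receptors upstream of ERK did not share a direction. Of 27 tested members, 5 rose, 8 fell and 14 were not called (3 and 4 called without the letter term), with a median log2 fold change of 0.01 (-0.06 with low-count genes at their bounds). Among ligands, Fgf4, an autocrine factor of pluripotent cells, had 104 and 143 CPM at day 0 and 31.2 and 42.2 CPM at day 2 (log2 fold change -1.75, SE 0.119, adjusted p = 9.58e-08), Fgf1 went from 8.13 and 10.2 to 1.29 and 1.32 CPM (-2.79, adjusted p = 1.76e-06), and Nrg1, a ligand of ERBB receptors, from 4.14 and 8.34 to 0.412 and 0.265 CPM (-4.06, adjusted p = 8.14e-07). All 3 fell in both letters. Gdnf, a neurotrophic ligand, had 1 count at day 0 and 71 at day 2, a ratio of 83.8 by pooled counts (95% exact interval 14.6 to 3358). Pdgfc, a ligand of PDGF receptors, rose from 46.7 and 62.6 to 85.7 and 109 CPM. Among receptors, Met, which binds hepatocyte growth factor, had 3.94 and 6.32 CPM at day 0 and 26.2 and 64.5 CPM at day 2 (log2 fold change 3.07, SE 0.224, adjusted p = 1.73e-07). Kit, the receptor of stem cell factor, had 15.5 and 41.5 CPM at day 0 and 74.9 and 253 CPM at day 2 (2.45, adjusted p = 7.61e-09, and 0.0791 without the letter term). Both Kit libraries at day 2 lay above both at day 0, and B was over 2 times A at each day. Igf1r, the receptor of insulin-like growth factors, fell by 1.01 on the log2 scale (adjusted p = 5.57e-05, and 0.632 without the letter term).

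Genes downstream of Wnt moved both ways. Of 23 tested members, 5 rose, 5 fell and 13 were not called (3 and 3 called without the letter term), with a median log2 fold change of 0.04. Axin2, a scaffold of the complex that destroys beta-catenin and a feedback target, had 1 count at day 0 and 99 at day 2, a ratio of 117 by pooled counts (95% exact interval 20.5 to 4664). Tnfrsf19, a receptor gene of the TNF family, had 1.95 and 2.22 CPM at day 0 and 7.67 and 14.8 CPM at day 2 (log2 fold change 2.38, SE 0.244, adjusted p = 5.03e-06). Notum, a secreted enzyme that inactivates Wnt ligands, went from 9.01 and 18.2 to 27.01 and 55.3 CPM (1.59, adjusted p = 8.47e-07, and 0.0777 without the letter term). Kremen1, a receptor of the DKK inhibitors, and Nkd1, an inhibitor acting on Dishevelled, were the other members that rose, Kremen1 not when KO day 0 A was left out (adjusted p = 0.0645). On the other side, Bmp4, a bone morphogenetic protein, had 2.48 and 5.73 CPM at day 0 and 0.257 and 0.331 CPM at day 2 (log2 fold change -3.71, SE 0.401, adjusted p = 8.14e-06). Lef1, a DNA-binding partner of beta-catenin, had 3.51 and 3.998 CPM at day 0 and 1.65 and 1.59 CPM at day 2 (log2 fold change -1.21, SE 0.236, adjusted p = 0.00139). Apcdd1, a membrane inhibitor of Wnt signalling, fell from 122 and 186 to 65.7 and 86.7 CPM (-1.004, adjusted p = 6.65e-06, and 0.0503 without the letter term), and Myc and Ccnd1, which are also targets of ERK, fell too.

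Of the 23 tested Wnt targets, 13 had a promoter window in the RefSeq tables (GRCm38.p6, a later build than the mm9 of the files), running from 250 bases before to 50 after the start of transcription. The core of the element bound by TCF and LEF factors, CTTTGAT or CTTTGAA, was searched on both strands. It was present in at least 1 window of 3 of the 13 genes, Sp5, Tnfrsf19 and Dkk1. Counted by window and not by gene, it was in 8.65% of all 32851. Its share was 7.12% of the 1630 genes with a window that rose, 7.22% of the 1343 that fell and 6.93% of the 7181 that were not called. The stretch around the match of Tnfrsf19, the one of the 3 that was called, is shown with the match, here on the opposite strand, in capitals (chr14:61038157-61038216, minus strand).
Tnfrsf19: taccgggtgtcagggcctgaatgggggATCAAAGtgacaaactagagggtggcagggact

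The parts of the Wnt pathway itself, its ligands, receptors and effectors, changed in 18 of 37 tested members, 12 higher and 6 lower (4 and 1 without the letter term), with a median log2 fold change of 0.29. Members called higher numbered 7 without KO day 0 B. Members called lower numbered 3 without either KO day 0 B or KO day 2 B. Wnt8a, a ligand, rose most, with 0 (A) and 0.197 (B) CPM at day 0 and 6.84 (A) and 20.3 (B) CPM at day 2 (log2 fold change 6.95, SE 0.447, adjusted p = 5.6e-08). Wnt5b, another ligand, went from 1.22 and 2.02 to 5.92 and 11.8 CPM (2.42, adjusted p = 2.04e-06), while Wnt5a, its close relative, fell from 12.3 and 28.97 to 2.88 and 6.22 CPM (-2.16, adjusted p = 2.96e-06, and 0.0563 without the letter term). Ligand export was split in the same way. Wls, the carrier that takes Wnt proteins to the cell surface, rose from 8.33 and 15.6 to 25.9 and 55.9 CPM (1.74, adjusted p = 1.5e-06, and 0.0513 without the letter term). Porcn, the acyltransferase that fits Wnt proteins with the lipid they need for secretion, had 129 and 208 CPM at day 0 and 34.7 and 53.1 CPM at day 2 (log2 fold change -1.93, SE 0.118, adjusted p = 3.21e-08), and its day 2 libraries were both below its day 0 libraries. Among secreted antagonists, Sfrp4 rose from 0.0487 and 0.247 to 1.70 and 2.65 CPM (3.84, adjusted p = 1.52e-05). Among receptors, Fzd5 fell from 127 and 239.5 to 77.8 and 127 CPM (-0.82, adjusted p = 2.87e-05, and 0.283 without the letter term). Of the DNA-binding effectors, Tcf7l1, which represses naive pluripotency genes, rose from 14.2 and 17.1 to 35.7 and 34.3 CPM (1.17, adjusted p = 3.84e-06).

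Naive pluripotency genes moved both ways. Of 24 tested members, 8 rose, 5 fell and 11 were not called (5 and 3 called without the letter term), with a median log2 fold change of 0.63 (0.44 with low-count genes at their bounds). Tcfcp2l1 (current symbol Tfcp2l1), a transcription factor downstream of LIF and of GSK3 inhibition, had 1.51 and 2.71 CPM at day 0 and 69.9 and 107 CPM at day 2 (log2 fold change 5.38, SE 0.186, adjusted p = 2.45e-10). Klf2, a Krüppel-like factor stabilised when MEK is inhibited, had 1.75 and 1.63 CPM at day 0 and 22.5 and 17.7 CPM at day 2 (log2 fold change 3.57, SE 0.172, adjusted p = 3.54e-09). Nanog had 0.730 and 0.642 CPM at day 0 and 6.23 and 4.83 CPM at day 2 (log2 fold change 2.996, SE 0.244, adjusted p = 4.99e-07). For these 3 genes the lowest day 2 library was several times above the highest day 0 library. Dppa5a, an RNA-binding protein of stem cells, went from 0.536 and 0.247 to 10.6 and 5.10 CPM and Klf5 from 5.50 and 6.27 to 21.04 and 17.5 CPM. Esrrb and Dppa3, marks of established naive cells named here after their values were seen, were not called, with 0.0487 and 0 CPM at day 0 and 0.103 and 0.0662 CPM at day 2 and 0 and 0 CPM at day 0 and 0.103 and 0 CPM at day 2 (adjusted p = 0.731 and 0.185).

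The other risers of the list began at higher levels and changed less. Stat3 rose from 126 and 125 to 192 and 187 CPM (0.60, adjusted p = 0.000314, and 0.0535 without the letter term). Manba, a lysosomal mannosidase, went from 22.4 and 49.6 to 33.9 and 80.7 CPM (0.65, adjusted p = 0.00305, and 0.596 without the letter term), and Mybl2, a factor of dividing cells, from 110.1 and 135 to 142 and 168 CPM (0.34, adjusted p = 0.023, and 0.454 without the letter term). The call of Manba was lost without KO day 0 A (adjusted p = 0.0687) or KO day 2 B (0.123), and that of Mybl2 without any of the 4 KO libraries of these days (0.062 to 0.223). The falling naive genes included Nr5a2, a nuclear receptor, which went from 18.99 and 15.3 to 7.97 and 8.27 CPM (-1.07, adjusted p = 7.68e-05), and Tdh, threonine dehydrogenase, which went from 165 and 149 to 87.6 and 84.6 CPM (-0.86, adjusted p = 0.000218). They also included Fgf4, described above, and Nr0b1, an orphan nuclear receptor, which went from 172 and 87.1 to 69.7 and 34.1 CPM (-1.32, adjusted p = 1.74e-06, and 0.162 without the letter term). Klf4 had 977 and 2527 CPM at day 0 and 483 and 1172 CPM at day 2 (-1.06, adjusted p = 5.19e-05, and 0.469 without the letter term). Its day 2 B library lay above its day 0 A library, so the days overlapped and the fall showed within letters only. The same held for Pou5f1, with 4119.7 and 8299 CPM at day 0 and 2318 and 4178 CPM at day 2 (-0.91, adjusted p = 0.000237, and 0.454 without the letter term). Myc had 736 and 1794 CPM at day 0 and 296 and 672 CPM at day 2 (-1.37, adjusted p = 8.58e-06, and 0.256 without the letter term). Sox2 had 208 and 449.6 CPM at day 0 and 200.4 and 392 CPM at day 2 and was not called (log2 fold change -0.13, adjusted p = 0.46). Pou5f1, Sox2, Klf4 and Myc are the 4 classic reprogramming factors, and gene totals do not separate the cells' own copies from any introduced ones.

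Among general pluripotency genes, 7 of 25 tested members rose and 4 fell (3 and 1 without the letter term), with a median log2 fold change of 0.19 (0.24 with low-count genes at their bounds). Gdf3, a ligand of the TGF-beta family found in pluripotent cells, had 1.07 and 1.58 CPM at day 0 and 20.1 and 40.9 CPM at day 2 (log2 fold change 4.48, SE 0.203, adjusted p = 2.08e-09). Tdgf1, the coreceptor of Nodal and Gdf3, had 4.24 and 3.65 CPM at day 0 and 16.4 and 22.8 CPM at day 2 (log2 fold change 2.30, SE 0.278, adjusted p = 2.31e-05). Gdf3 and Tdgf1 thus rose together, with no overlap between the days. Sall1, a zinc finger factor, rose from 52.0 and 90.3 to 100.2 and 149.5 CPM (0.83, adjusted p = 2.56e-05, and 0.241 without the letter term). Zscan10 rose from 10.52 and 16.1 to 20.7 and 34.7 CPM (1.05, adjusted p = 1.42e-05, and 0.142 without the letter term).

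Markers of the primed epiblast, the later pluripotent state, moved both ways as well, with 5 of 13 higher and 3 lower (3 and 1 without the letter term) and a median log2 fold change of 0.24 (0.44 with low-count genes at their bounds). Higher calls came to 3 without any of WT day 2 B, KO day 0 A, KO day 2 A, KO day 0 B, KO day 2 B. Pim2, a serine/threonine kinase gene, had 22.3 and 28.1 CPM at day 0 and 213 and 181 CPM at day 2 (log2 fold change 2.96, SE 0.156, adjusted p = 7.6e-09). Pou3f1, a POU factor of the epiblast and of neural progenitors, had 10.8 and 10.2 CPM at day 0 and 2.68 and 1.85 CPM at day 2 (log2 fold change -2.20, SE 0.230, adjusted p = 5.93e-06). Zic2 fell from 58.6 and 74.7 to 38.3 and 40.7 CPM (-0.74, adjusted p = 8.22e-05, and 0.0503 without the letter term). Of 15 tested genes of the primitive streak and mesoderm, 2 rose and 2 fell (2 and 0 without the letter term). This was 26.7% of them, against 29.5% of all genes tested. For higher members the count was 1 without any of KO day 0 A, KO day 2 A, KO day 0 B. For lower members it was 0 without any of WT day 0 A, KO day 0 A, KO day 2 A, KO day 0 B, KO day 2 B, 1 without any of WT day 2 A, WT day 10 A, WT day 0 B, WT day 2 B, WT day 10 B. The summed levels of these genes were 7.45 and 11.99 CPM at day 0 and 8.44 and 8.74 CPM at day 2.

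Receptors of the LIF pathway moved apart. Of 19 tested members, 6 rose, 8 fell and 5 were not called (2 and 3 called without the letter term), with a median log2 fold change of 0.11. Lifr, the LIF receptor, had 115 and 216 CPM at day 0 and 269 and 570.3 CPM at day 2 (1.32, adjusted p = 2.1e-06, and 0.143 without the letter term), whereas Osmr, the receptor of the related cytokine oncostatin M, had 193 and 355 CPM at day 0 and 67.3 and 159 CPM at day 2 (-1.33, adjusted p = 1.76e-06, and 0.187 without the letter term). Inside the cell, the kinase gene Jak2 rose from 17.1 and 17.6 to 32.002 and 30.8 CPM (0.85, adjusted p = 9.94e-05), and the other risers were Klf5, Stat3, which LIF activates, its feedback inhibitor Socs3, and Icam1, the last of them not without KO day 0 B (adjusted p = 0.147) or KO day 2 B (0.0698). Socs2, a feedback inhibitor of cytokine signalling, had 70.7 and 63.5 CPM at day 0 and 24.03 and 20.2 CPM at day 2 (log2 fold change -1.60, SE 0.106, adjusted p = 7.2e-08). The kinase genes Pim1 and Pim3 fell from 29.99 and 33.4 to 15.9 and 17.9 CPM and from 131 and 138 to 71.8 and 72.4 CPM, opposite to Pim2.

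**Figure D2:**
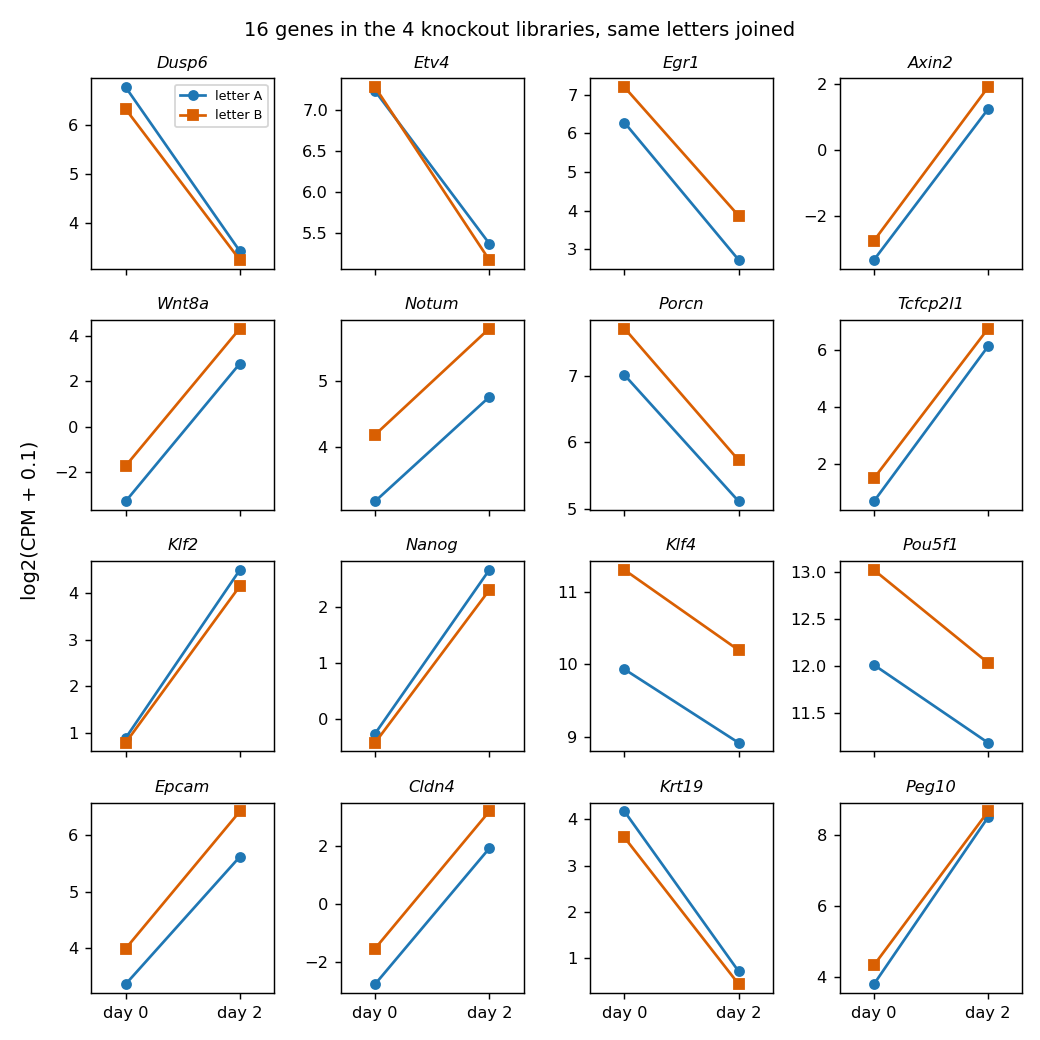
Log2 of CPM plus 0.1 for 16 genes at day 0 and day 2 of Kdm3b KO cells, with libraries of the same letter joined (A blue circles, B orange squares) and each panel on its own scale. In every panel both lines run the same way, and in Klf4 and Pou5f1 the A and B lines are as far apart as the days.

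The TGF-beta ligand genes Tgfb1 and Tgfb2 and the type II receptor gene fell while the Nodal-type pair Gdf3 and Tdgf1 rose. Of 32 tested members, 4 rose, 8 fell and 20 were not called (3 and 5 called without the letter term), with a median log2 fold change of -0.18. Tgfb2 had 36.5 and 87.8 CPM at day 0 and 6.74 and 12.4 CPM at day 2 (log2 fold change -2.65, SE 0.235, adjusted p = 1.26e-06). Tgfb1 went from 4.33 and 6.12 to 1.44 and 2.45 CPM (-1.44, adjusted p = 0.000139). Tgfb3, the remaining ligand of this kind, was not called, with 0.584 and 1.09 CPM at day 0 and 0.823 and 0.993 CPM at day 2 (0.13, adjusted p = 0.855). Tgfbr2, the type II receptor that binds them, had 65.7 and 97.4 CPM at day 0 and 18.3 and 28.7 CPM at day 2 (log2 fold change -1.80, SE 0.158, adjusted p = 1.12e-06). Tgfb1, Tgfb2 and Tgfbr2 fell in both letters with no overlap between days. Inhbb, a subunit of activin B, fell from 2.48 and 3.85 to 0.669 and 0.860 CPM (-2.03, adjusted p = 4.66e-05). The 4 members that rose were Gdf3, Tdgf1, Fst, a secreted binder of activin, and Tgfbr1, the type I receptor. The call of Tgfbr1 was lost without KO day 0 A (adjusted p = 0.243), KO day 0 B (0.0732) or KO day 2 B (0.323).

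Epithelial junction genes rose more often than they fell. Of 35 tested members, 14 rose, 3 fell and 18 were not called (7 and 1 called without the letter term), with a median log2 fold change of 0.60. Higher calls came to 9 without KO day 0 B. Lower calls came to 1 without KO day 0 B. Epcam, an adhesion molecule of epithelia and of pluripotent cells, had 10.2 and 15.8 CPM at day 0 and 48.9 and 85.2 CPM at day 2 (log2 fold change 2.35, SE 0.159, adjusted p = 8.82e-08). Cldn4, a tight-junction claudin, had 0.0487 and 0.247 CPM at day 0 and 3.65 and 8.93 CPM at day 2 (log2 fold change 5.33, SE 0.347, adjusted p = 6.38e-08). Some desmosome genes rose too. Dsp, the plaque protein desmoplakin, went from 29.7 and 47.1 to 91.1 and 134 CPM (1.57, adjusted p = 2.2e-07), and Dsg2, a desmosomal cadherin, from 3.36 and 8.14 to 15.2 and 47.1 CPM (2.37, adjusted p = 1.83e-06). Dsc2, another desmosomal cadherin, rose from 5.60 and 14.4 to 15.5 and 48.4 CPM (1.62, adjusted p = 2.95e-05, and 0.169 without the letter term). The plaque genes Pkp1, Pkp3 and Jup were not called (0.21, 0.28 and -0.22, adjusted p = 0.196, 0.167 and 0.17), though Pkp1 and Jup passed in a fit of the 4 KO libraries alone (0.0343 and 0.0326). Cdh1, the E-cadherin of adherens junctions, had 5.11 and 9.48 CPM at day 0 and 17.96 and 43.02 CPM at day 2 (2.02, adjusted p = 1.72e-06, and 0.0572 without the letter term). Esrp1, a splicing factor of epithelial cells, rose from 10.1 and 13.1 to 28.9 and 33.8 CPM (1.44, adjusted p = 4.54e-07). Krt19, a keratin of simple epithelia, went the other way, with 17.9 and 12.1 CPM at day 0 and 1.54 and 1.26 CPM at day 2 (log2 fold change -3.41, SE 0.175, adjusted p = 6.31e-09), with no overlap between the days.

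Mesenchymal genes did not fall as a group. Of 36 tested members, 9 rose, 9 fell and 18 were not called (4 and 2 called without the letter term), with a median log2 fold change of 0.27. For lower members the count was 4 without either KO day 2 A or KO day 0 B, 5 without KO day 0 A. Tgfbi, a secreted matrix protein induced by TGF-beta in many cells, had 0.292 and 1.23 CPM at day 0 and 7.31 and 17.6 CPM at day 2 (log2 fold change 4.01, SE 0.277, adjusted p = 1.04e-07). Zeb2, a repressor of Cdh1, had 7.40 and 7.45 CPM at day 0 and 25.6 and 31.4 CPM at day 2 (log2 fold change 1.93, SE 0.149, adjusted p = 3.01e-07), whereas its paralog Zeb1 fell from 77.999 and 61.6 to 48.7 and 41.3 CPM (-0.63, adjusted p = 0.000433, and 0.0699 without the letter term). Fbn1, a microfibril protein, rose from 7.01 and 24.8 to 31.4 and 123 CPM (2.24, adjusted p = 4.99e-07, and 0.178 without the letter term), and Fn1, fibronectin, from 502 and 2082 to 918 and 4389 CPM (0.98, adjusted p = 0.00042, and 0.722 without the letter term). In Fbn1 and Fn1 the B libraries were over 3 times the A libraries at each day. Col3a1, a fibrillar collagen, had 0 counts at day 0 and 155 at day 2, in pooled counts at least 61.02-fold higher. S100a4, a calcium-binding protein used as a fibroblast marker, had 69.9 and 35.8 CPM at day 0 and 1.70 and 0.529 CPM at day 2 (log2 fold change -5.51, SE 0.349, adjusted p = 4.76e-08). Vim, vimentin, was not called, with 912 and 695 CPM at day 0 and 1088 and 813 CPM at day 2 (log2 fold change 0.24, adjusted p = 0.119).

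In the extracellular matrix list, basement membrane genes moved in opposite directions. Of 28 tested members, 8 rose, 5 fell and 15 were not called (0 and 0 called without the letter term), with a median log2 fold change of 0.00. The lower calls were 3 without KO day 0 B. Nid2, a nidogen that links laminin to collagen, had 4.38 and 14.8 CPM at day 0 and 29.6 and 120.3 CPM at day 2 (2.90, adjusted p = 5.98e-08, and 0.0913 without the letter term). The collagen IV chains Col4a1 and Col4a2, which lie head to head in the genome, went from 25.4 and 65.8 to 59.9 and 207 CPM (1.47, adjusted p = 3.22e-06, and 0.313 without the letter term) and from 25.9 and 97.5 to 65.96 and 256 CPM (1.37, adjusted p = 4.39e-06, and 0.51 without the letter term). Lamb1, a laminin chain, fell instead, with 255 and 761 CPM at day 0 and 72.4 and 235 CPM at day 2 (-1.75, adjusted p = 1.88e-07, and 0.259 without the letter term). Each of these 4 genes changed by more than 2-fold within both letters, and B stood at over 2 times A in every one. P4ha2, a prolyl hydroxylase of collagen that depends on ascorbic acid, fell from 18.8 and 41.9 to 9.16 and 23.4 CPM (-0.93, adjusted p = 0.000926, and 0.438 without the letter term). Plod2, a lysyl hydroxylase of collagen, was not called (-0.14, adjusted p = 0.413).

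Neural genes rose more often than they fell. Of 27 tested members, 10 rose, 4 fell and 13 were not called (5 and 2 called without the letter term), with a median log2 fold change of 0.62 (0.69 with low-count genes at their bounds). Sox1, a transcription factor of neural progenitors, had 41.4 and 48.3 CPM at day 0 and 126 and 122 CPM at day 2 (log2 fold change 1.47, SE 0.113, adjusted p = 2.91e-07). Mtap2 (current symbol Map2), a microtubule protein of dendrites, had 2.29 and 2.02 CPM at day 0 and 16.8 and 18.1 CPM at day 2 (log2 fold change 3.01, SE 0.181, adjusted p = 2.96e-08). Gap43, a growth cone protein, had 1 count at day 0 and 220 at day 2, a ratio of 259.8 by pooled counts (95% exact interval 46.1 to 10310.0). Both Sox1 and Mtap2 had A and B close together. Ncam1, a neural adhesion molecule, rose from 35.3 and 97.4 to 78.9 and 244 CPM (1.25, adjusted p = 7.97e-06, and 0.371 without the letter term). Olig1, a factor of the oligodendrocyte lineage, fell from 73.5 and 69.2 to 33.8 and 25.3 CPM (-1.28, adjusted p = 1.92e-06). St8sia2, a sialyltransferase that modifies Ncam1, fell from 9.93 and 31.05 to 0.154 and 1.32 CPM (-4.84, adjusted p = 5.64e-07). Hes5, Sox3 and Gfap were at 0 in all 4 libraries, and Tubb3, a neuronal tubulin, was not called (0.62, adjusted p = 0.11). The summed levels of the list were 894 and 973 CPM at day 0 and 969.5 and 1412 CPM at day 2.

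Axon guidance and adhesion molecules changed in 19 of 38 tested cases, 12 higher and 7 lower (3 and 1 without the letter term), with a median log2 fold change of 0.45. Higher calls came to 7 without either KO day 0 A or KO day 2 B. Efnb2, an ephrin ligand, had 27.8 and 44.3 CPM at day 0 and 81.2 and 116 CPM at day 2 (log2 fold change 1.47, SE 0.101, adjusted p = 1.01e-07). Robo2, a receptor of Slit proteins, had 0.0974 and 0.345 CPM at day 0 and 2.98 and 8.07 CPM at day 2 (log2 fold change 4.55, SE 0.406, adjusted p = 1.29e-06). Pcdh18, a protocadherin, went from 5.01 and 8.54 to 19.1 and 46.9 CPM (2.21, adjusted p = 2.91e-07). The semaphorin Sema6d rose from 5.50 and 12.8 to 17.7 and 49.8 CPM (1.84, adjusted p = 7.24e-06, and 0.12 without the letter term). Netrin 1, Ntn1, fell from 134 and 277 to 87.7 and 169 CPM (-0.67, adjusted p = 0.000236, and 0.528 without the letter term), and the neuropilin gene Nrp2 by 0.98 (adjusted p = 4.89e-05, and 0.459 without the letter term).

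Imprinted genes, which are expressed from 1 parental copy under the control of DNA methylation, were higher in 9 of 29 tested cases and lower in 3 (5 and 0 without the letter term), with a median log2 fold change of 0.18. For lower members the count was 6 without either KO day 10 A or KO day 10 B. Peg10, a paternally expressed gene derived from a retrotransposon, had 13.7 and 19.9 CPM at day 0 and 365 and 408 CPM at day 2 (log2 fold change 4.54, SE 0.160, adjusted p = 2.65e-10). Plagl1, a zinc finger gene, had 0.0974 and 0.197 CPM at day 0 and 3.45 and 5.10 CPM at day 2 (log2 fold change 4.82, SE 0.486, adjusted p = 4.24e-06). Mest, a hydrolase gene, had 5.21 and 4.64 CPM at day 0 and 10.9 and 12.8 CPM at day 2 (log2 fold change 1.26, SE 0.157, adjusted p = 2.95e-05). The days did not overlap in any of the 3. Peg3 fell within letters, from 646 and 1114 to 281 and 659.8 CPM (-0.96, adjusted p = 0.000576, and 0.398 without the letter term). Igf2, a fetal growth factor, had 10.3 and 13.1 CPM at day 0 and 6.84 and 9.33 CPM at day 2 (-0.54, adjusted p = 0.00744, and 0.267 without the letter term). The call for Igf2 was lost without KO day 0 A (adjusted p = 0.059) and without KO day 2 A (0.0624).

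The neighbours of Peg10 on chromosome 6 were looked at after its value had been seen, with gene order from RefSeq (GRCm38.p6). From Casd1 to Asb4, all 7 tested genes rose. In chromosomal order Casd1 went from 25.2 and 31.5 to 45.8 and 57.4 CPM, Sgce from 11.004 and 18.8 to 29.6 and 65.8 CPM, Peg10 as above, Ppp1r9a from 19.9 and 61.4 to 42.4 and 158 CPM (adjusted p = 7.63e-05, and 0.442 without the letter term), Pon3 from 1 count to 68, a ratio of 80.3 by pooled counts (95% exact interval 13.9 to 3218), Pon2 from 4.72 and 6.37 to 28.2 and 33.1 CPM, and Asb4 from 0 counts to 19, in pooled counts at least 7.48-fold higher. The log2 fold changes with their SE were 0.87 (0.104) for Casd1, 1.64 (0.214) for Sgce and 2.47 (0.147) for Pon2. On the near side Bet1 was not called, with 30.97 and 17.7 CPM at day 0 and 27.4 and 16.9 CPM at day 2, and Col1a2 had at most 0.0515 CPM. On the far side Pdk4 and Dync1i1 were not called either, both under 0.5 CPM in every library. The called rises thus formed an unbroken run among the tested genes. Of the uncalled genes named on either side, Bet1 had a level like that of Casd1 at day 0, and Col1a2, Pdk4 and Dync1i1 had little or no signal.

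Another run of neighbours, the S100 genes of chromosome 3, also chosen after seeing its values, fell. These genes encode small calcium-binding proteins. S100a16 had 76.8 and 38.5 CPM at day 0 and 2.68 and 1.46 CPM at day 2, S100a3 37.9 and 23.6 CPM at day 0 and 0.669 and 0.265 CPM at day 2, and S100a6 875 and 489 CPM at day 0 and 205 and 119.5 CPM at day 2. Their log2 fold changes were -4.80 (SE 0.305), -5.98 (SE 0.228) and -2.06 (SE 0.119), beside -5.51 for S100a4, which lies among them. At the edge of the run S100a1 rose by 0.63 (adjusted p = 0.0118, and 0.829 without the letter term), a call lost without any 1 of the 4 KO libraries (adjusted p between 0.0555 and 0.104). S100a13 was not called (-0.47, adjusted p = 0.115). In the Hoxc cluster of chromosome 15 the change turned sign along the cluster. Hoxc9 fell from 3.85 and 3.80 to 1.65 and 1.12 CPM (-1.45, adjusted p = 0.00204) and Hoxc8 from 3.99 and 6.76 to 1.80 and 2.38 CPM (-1.33, adjusted p = 0.000758, and 0.0762 without the letter term), while Hoxc6, the next gene, rose from 1.22 and 2.42 to 4.12 and 5.89 CPM (1.48, adjusted p = 0.000569, and 0.0637 without the letter term). Hoxc13 and Hoxc4, at either end, were not called (-0.31 and -0.05, adjusted p = 0.433 and 0.906). Over all Hox and related homeobox genes, 9 of 38 rose and 5 fell (1 and 1 without the letter term), with a median log2 fold change of 0.09. The higher calls were 2 without KO day 0 A, 3 without KO day 2 A, 5 without either KO day 0 B or KO day 2 B. The lower calls were 2 without either KO day 0 A or KO day 0 B, 3 without either KO day 2 A or KO day 2 B. Meis2, a partner of Hox proteins, rose from 42.8 and 42.8 to 81.7 and 74.8 CPM (0.87, adjusted p = 7.29e-06).

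**Figure D3:**
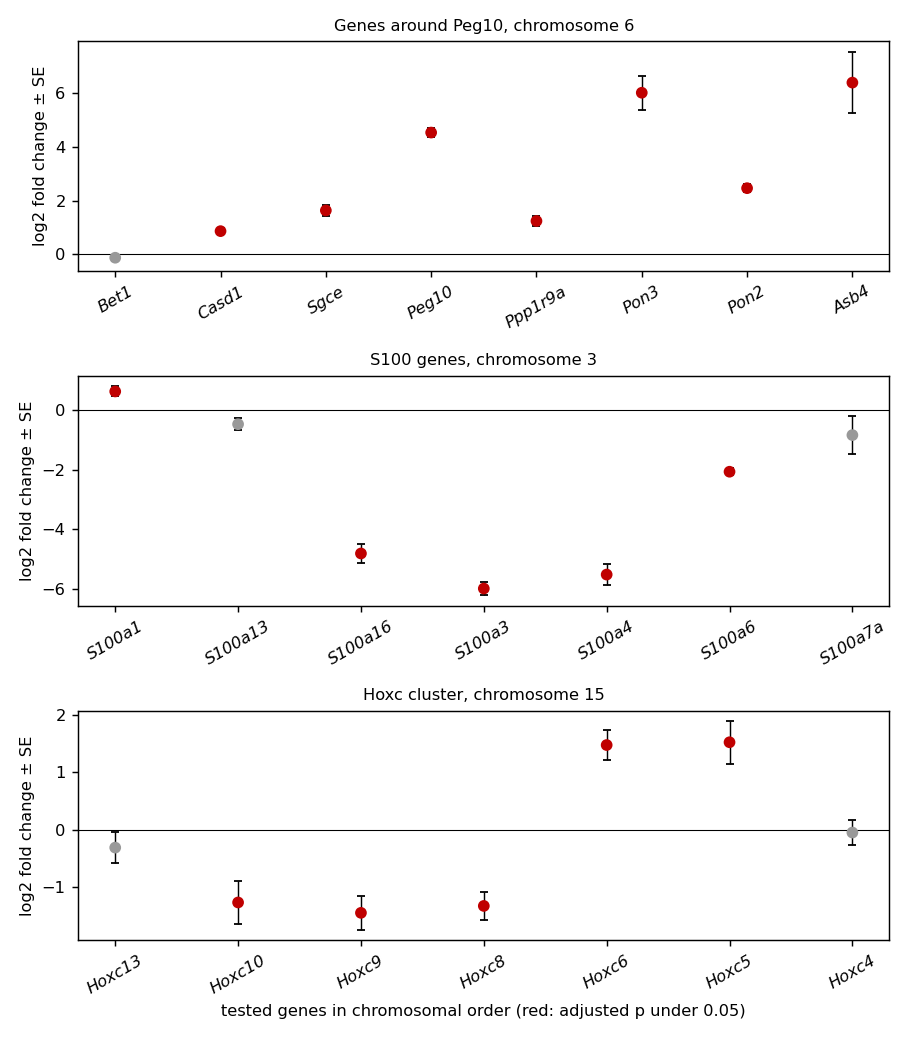
Log2 fold change of day 2 against day 0 in KO cells, with its SE as bars, for tested genes with more than 0.5 CPM in at least 1 library, in the order they lie around Peg10 on chromosome 6 (top), in the S100 run of chromosome 3 (middle) and in the Hoxc cluster of chromosome 15 (bottom). Called genes are red: those from Casd1 to Asb4 lie above 0, those from S100a16 to S100a6 below 0, and the Hoxc genes on both sides.

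Genes of the amino acid and integrated stress response, many of them targets of the transcription factor ATF4, were higher in 19 of 30 tested cases and lower in 1 (5 and 0 without the letter term), with a median log2 fold change of 0.45. Members called higher numbered 10 without KO day 0 A, 12 without KO day 0 B. Members called lower numbered 0 without any of WT day 2 A, WT day 10 A, WT day 10 B, KO day 0 A, KO day 2 A, KO day 10 A, KO day 0 B, KO day 10 B. The 1 lower member, the arginine carrier Slc7a3, lay at the threshold (adjusted p = 0.0497, and 0.9 without the letter term) and was lost in 8 of the 12 fits that left out 1 library, with an adjusted p up to 0.417 (KO day 2 A). Trib3, a pseudokinase that dampens the response, had 11.4 and 11.01 CPM at day 0 and 51.04 and 38.7 CPM at day 2 (log2 fold change 1.99, SE 0.142, adjusted p = 1.39e-07). Chac1, an enzyme that breaks down glutathione, had 10.2 and 7.65 CPM at day 0 and 40.3 and 23.9 CPM at day 2 (log2 fold change 1.82, SE 0.179, adjusted p = 3.22e-06). Atf5, a transcription factor related to ATF4, had 69.2 and 51.7 CPM at day 0 and 159.9 and 101 CPM at day 2 (log2 fold change 1.10, SE 0.0970, adjusted p = 1.22e-06). In Trib3, Chac1 and Atf5 both day 2 libraries lay above both day 0 libraries. Aldh1l2, an enzyme of mitochondrial folate metabolism, rose from 5.55 and 10.7 to 27.1 and 30.6 CPM (1.87, adjusted p = 2.32e-05), and Ddit3, which encodes the factor CHOP, from 7.74 and 6.47 to 12.5 and 12.3 CPM (0.80, adjusted p = 0.00119). Shmt2, which makes glycine from serine in mitochondria, rose by 0.59 (adjusted p = 0.000368, and 0.159 without the letter term). Phgdh, which starts serine synthesis, was not called (0.20, adjusted p = 0.127).

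An element of ATF4, TTGCATCA, was searched on both strands of the same promoter windows. It was in at least 1 window of 6 of the 26 list members with a window (23.1%). Counted by window and not by gene, it was in 0.895% of all 32851. Its share was 1.29% of 1630 genes that rose, 0.819% of 1343 that fell and 0.585% of 7181 not called. The stretches around the matches of 4 of the 6 genes follow, in capitals at the match, because these genes rose. Slc7a11, the cystine carrier, is shown after its values were seen for having 2 matches, as 2 of all windows have. The windows lie at chr2:119351023-119351082, plus strand, for Chac1, at chr19:27216794-27216853, plus strand, for Vldlr, at chr7:126625547-126625606, minus strand, for Nupr1, and at chr3:50443637-50443696, minus strand, for Slc7a11.
Chac1: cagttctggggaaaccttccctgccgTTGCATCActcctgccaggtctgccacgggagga
Vldlr: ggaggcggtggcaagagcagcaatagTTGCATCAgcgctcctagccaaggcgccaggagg
Nupr1: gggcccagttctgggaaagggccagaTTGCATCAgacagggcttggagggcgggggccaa
Slc7a11: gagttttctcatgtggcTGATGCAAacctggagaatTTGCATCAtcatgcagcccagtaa
Vldlr, a lipoprotein receptor, went from 16.1 and 29.6 to 38.6 and 84.4 CPM (1.40, adjusted p = 8.6e-06, and 0.0846 without the letter term), Nupr1, a small stress protein, from 47.4 and 25.6 to 93.3 and 36.3 CPM (0.76, adjusted p = 0.00101, and 0.48 without the letter term), and Slc7a11 from 302 and 481 to 395 and 774 CPM (0.55, adjusted p = 0.0139, and 0.516 without the letter term). All 3 were called with the letter term only, and Slc7a11 not without KO day 0 A (adjusted p = 0.128), KO day 0 B (0.0757) or KO day 2 B (0.286).

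Metallothioneins and several NRF2-type detoxification genes rose. Of 33 tested members, 13 rose, 2 fell and 18 were not called (5 and 0 called without the letter term), with a median log2 fold change of 0.24 (0.33 with low-count genes at their bounds). Higher calls came to 7 without KO day 0 A, 8 without either KO day 2 A or KO day 0 B. Lower calls came to 1 without either KO day 0 A or KO day 2 B. Mt2, a metallothionein that binds zinc and copper, had 12.9 and 7.16 CPM at day 0 and 279.7 and 113 CPM at day 2 (log2 fold change 4.23, SE 0.145, adjusted p = 2.45e-10), and its neighbour Mt1 had 33.2 and 17.2 CPM at day 0 and 217 and 86.3 CPM at day 2 (log2 fold change 2.53, SE 0.118, adjusted p = 2.72e-09). In both genes A was higher than B at each day, and every day 2 library was above every day 0 library. Nqo1, a quinone reductase and textbook NRF2 target, went from 14.3 and 6.71 to 54.3 and 27.7 CPM (1.97, adjusted p = 3.01e-08), and Mgst1, a membrane glutathione transferase, from 51.5 and 46.05 to 157 and 204 CPM (1.89, adjusted p = 8.16e-06). Hmox1, heme oxygenase, rose from 44.02 and 26.01 to 64.6 and 44.3 CPM (0.65, adjusted p = 0.00124, and 0.397 without the letter term), and Gclm, a subunit of the enzyme that starts glutathione synthesis, from 40.3 and 32.9 to 68.1 and 45.7 CPM (0.62, adjusted p = 0.000434, and 0.147 without the letter term). Sod2, the superoxide dismutase of mitochondria, fell from 227 and 123 to 146 and 83.5 CPM (-0.60, adjusted p = 0.000467, and 0.514 without the letter term).

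The metal response element, with the core TGCGCNC or TGCACNC, is the known binding site of the zinc-sensing factor MTF1. At least 1 match on either strand was in 25.7% of all windows, and at least 3 were in 1.97%. Counted by gene instead, at least 1 window held a match for 40.9% of the genes that rose, 44.3% of those that fell and 39.3% of those not called. The same held for 10 of the 27 list members with a window (37%), a share below that of the uncalled genes. As a gene can have several windows, these shares cannot be set against the 25.7% of windows. The first listed windows of Mt1 and Mt2, shown here to 30 bases past the start because these are the clearest risers of the list, hold 3 and 4 matches, in capitals (chr8:94178839-94179118, plus strand, for Mt1 and chr8:94172368-94172647, plus strand, for Mt2). Any further windows of these genes are not in these counts. The last pair of the 4 in Mt2 is on the opposite strand.
Mt1: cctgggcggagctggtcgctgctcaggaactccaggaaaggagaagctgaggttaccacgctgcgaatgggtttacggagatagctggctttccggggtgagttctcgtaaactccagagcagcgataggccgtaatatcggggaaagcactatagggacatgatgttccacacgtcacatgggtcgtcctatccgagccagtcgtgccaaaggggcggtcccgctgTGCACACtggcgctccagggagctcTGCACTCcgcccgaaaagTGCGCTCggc
Mt2: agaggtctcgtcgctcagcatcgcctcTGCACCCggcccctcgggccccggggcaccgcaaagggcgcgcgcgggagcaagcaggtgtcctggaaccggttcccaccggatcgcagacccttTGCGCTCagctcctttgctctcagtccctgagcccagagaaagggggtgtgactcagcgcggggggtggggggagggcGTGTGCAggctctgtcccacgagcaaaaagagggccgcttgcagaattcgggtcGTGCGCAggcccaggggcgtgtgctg

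Sterol and fatty acid genes fell in 11 of 32 tested cases and rose in 1 (2 and 0 without the letter term), with a median log2 fold change of -0.22. For higher members the count was 0 without either KO day 0 A or KO day 2 B, 2 without either WT day 0 A or WT day 0 B, 3 without KO day 2 A. For lower members it was 6 without KO day 0 B, 7 without either KO day 0 A or KO day 2 A. Insig1, a sterol sensor of the endoplasmic reticulum, had 201 and 195 CPM at day 0 and 101 and 96.3 CPM at day 2 (log2 fold change -1.01, SE 0.0971, adjusted p = 2.73e-06). Fdps and Lss, enzymes of the pathway, fell from 144 and 91.3 to 75.6 and 50.6 CPM (-0.89, adjusted p = 3.35e-05, and 0.176 without the letter term) and from 49.8 and 62.8 to 30.1 and 39.7 CPM (-0.69, adjusted p = 0.000736, and 0.13 without the letter term). Sqle, another enzyme of the pathway, was not called (-0.23, adjusted p = 0.144).

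Hypoxia response genes fell in 11 of 25 tested cases and rose in 4 (2 and 0 without the letter term), with a median log2 fold change of -0.33. The higher calls were 1 without any of KO day 0 A, KO day 0 B, KO day 2 B, 2 without KO day 2 A. Epas1, which encodes the oxygen-regulated factor HIF2A, had 72.7 and 84.2 CPM at day 0 and 14.1 and 13.2 CPM at day 2 (log2 fold change -2.51, SE 0.130, adjusted p = 6.65e-09). Mxi1, an antagonist of MYC induced by hypoxia, fell from 70.3 and 58.7 to 34.8 and 26.6 CPM (-1.07, adjusted p = 1.76e-06). Ndrg1, a stress-induced gene, fell from 136 and 98.96 to 76.2 and 52.7 CPM (-0.87, adjusted p = 5.67e-05, and 0.128 without the letter term), and Egln3, an oxygen-sensing prolyl hydroxylase, from 70.3 and 52.8 to 36.9 and 26.7 CPM (-0.96, adjusted p = 0.00262, and 0.14 without the letter term). Among glycolysis genes, 7 of 26 rose and 5 fell (2 and 0 without the letter term), with a median log2 fold change of 0.06. Members called higher numbered 3 without KO day 0 A, 4 without KO day 2 B. Members called lower numbered 2 without KO day 0 A, 3 without either KO day 2 A or KO day 0 B. Pfkp, a phosphofructokinase, rose from 144 and 115 to 284 and 249 CPM (1.05, adjusted p = 3.1e-06), and Pfkfb3, which makes its activator, from 22.01 and 25.96 to 40.5 and 51.9 CPM (0.94, adjusted p = 9.99e-05). Slc2a3, a glucose carrier, rose from 33.5 and 65.4 to 68.1 and 153 CPM (1.13, adjusted p = 0.000397, and 0.271 without the letter term). Eno2, an enolase, fell from 56.1 and 123 to 25.9 and 59.1 CPM (-1.09, adjusted p = 2.29e-05, and 0.394 without the letter term).

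Cell cycle genes that changed mostly fell, by small amounts. Of 38 tested members, 17 fell and 1 rose (1 and 0 without the letter term), with a median log2 fold change of -0.29. Higher calls came to 0 without either KO day 0 A or KO day 2 A, 2 without WT day 10 A. Lower calls came to 6 without KO day 0 A, 8 without KO day 2 B, 11 without KO day 0 B. Mcm7, part of the replication helicase, had 817 and 517 CPM at day 0 and 440.4 and 288 CPM at day 2 (-0.87, adjusted p = 2e-05, and 0.19 without the letter term). Mcm3 had 360.1 and 240.5 CPM at day 0 and 237 and 153 CPM at day 2 (-0.63, adjusted p = 0.000404, and 0.327 without the letter term). Bub1b, a spindle checkpoint kinase, fell from 271 and 189 to 174 and 124 CPM (-0.62, adjusted p = 0.000455, and 0.204 without the letter term). Ccnd1, cyclin D1, had 302 and 271 CPM at day 0 and 175 and 143 CPM at day 2 (log2 fold change -0.85, SE 0.130, adjusted p = 0.000192) and was the only member called in both fits. Of 23 tested growth genes of the MYC network, 10 fell and 1 rose (1 and 0 without the letter term), with a median log2 fold change of -0.23. For higher members the count was 0 without any of KO day 0 A, KO day 2 A, KO day 0 B. For lower members it was 3 without KO day 2 B, 4 without KO day 0 A, 5 without KO day 0 B, 6 without WT day 10 A. Among p53 targets and cell cycle inhibitors, 5 of 25 rose and 6 fell (1 and 0 without the letter term), with a median log2 fold change of -0.05. The higher calls were 3 without either KO day 0 A or KO day 2 A. The lower calls were 2 without KO day 0 A, 3 without any of KO day 2 A, KO day 0 B, KO day 2 B. Gadd45a, a stress gene that also takes part in DNA repair, had 13.6 and 17.7 CPM at day 0 and 46.9 and 42.9 CPM at day 2 (log2 fold change 1.53, SE 0.128, adjusted p = 6.82e-07). Cdkn2b, an inhibitor of CDK4, rose from 3.12 and 1.68 to 7.77 and 4.10 CPM (1.31, adjusted p = 0.00118, and 0.106 without the letter term). Trp53, which encodes p53, was not called (-0.22, adjusted p = 0.0904).

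Among 26 tested H3K9 methyltransferases, demethylases and partners, 3 rose and 4 fell, Kdm3b among the latter, and 0 and 0 were called without the letter term, with a median log2 fold change of -0.05. The called share was 26.9%, against 29.5% of all genes tested. Members called higher numbered 1 without any of KO day 2 A, KO day 0 B, KO day 2 B. Jhdm1d (current symbol Kdm7a), a demethylase of H3K9 and H3K27, had 149.7 and 230.3 CPM at day 0 and 61.5 and 99.1 CPM at day 2 (-1.25, adjusted p = 5.51e-07, and 0.0651 without the letter term). Suv39h1, a methyltransferase of heterochromatin, fell from 114 and 125 to 87.4 and 95.03 CPM (-0.39, adjusted p = 0.00377, and 0.201 without the letter term). Of 28 tested genes of Polycomb, trithorax and H3K27 enzymes, 5 rose and 9 fell (0 and 1 without the letter term), with a median log2 fold change of -0.14. Higher calls came to 0 without either KO day 0 A or KO day 2 A, 2 without any of WT day 0 B, KO day 0 B, KO day 2 B, 3 without either WT day 2 B or WT day 10 B. Lower calls came to 3 without KO day 0 A, 4 without KO day 0 B, 5 without KO day 2 B. Phf19, an accessory subunit that guides PRC2, had 38.3 and 44.5 CPM at day 0 and 18.3 and 20.4 CPM at day 2 (log2 fold change -1.09, SE 0.130, adjusted p = 2e-05). Ezh1, a catalytic subunit, fell from 48.1 and 59.6 to 30.3 and 37.1 CPM (-0.68, adjusted p = 0.000145, and 0.0824 without the letter term). Of 17 DNA methylation genes, 3 rose and 1 fell (2 and 0 without the letter term), with a median log2 fold change of -0.05. Their called share, 23.5%, was also below that of all genes tested. For lower members the count was 0 without either KO day 0 A or KO day 0 B, 2 without either WT day 2 A or WT day 2 B. The 2 that passed both ways were Gadd45a and its relative Gadd45b, which went from 47.3 and 40.6 to 91.1 and 73.7 CPM (0.90, adjusted p = 9.71e-06). Dnmt3a and Dnmt3b, which methylate DNA anew, and Tet1, which oxidises methylated DNA, were not called. Their log2 fold changes were 0.22, 0.24 and -0.22.

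Germline genes, many of which are held silent by DNA methylation, stayed low. Of 29 tested germline genes, 1 rose, Tdrd9, a helicase of the piRNA pathway, from 0.0487 and 0.0494 to 0.617 and 1.46 CPM (log2 fold change 4.20, SE 0.759, adjusted p = 0.000771), and 0 fell (1 at an unadjusted p under 0.05, and 0 by DESeq2). The summed levels of the germline list were 14.8 and 14.9 CPM at day 0 and 15.1 and 18.3 CPM at day 2, and Dazl, Mael and Stra8 were among 9 genes at 0 in all 4 libraries. No more than 12 of the 29 had over 3 counts in the pooled KO libraries of day 0 or of day 2. Of 11 tested genes of the 2-cell stage, edgeR's quasi-likelihood test called 0 (2 at an unadjusted p under 0.05, both lower, and 1 lower by DESeq2), and Zscan4c and Zscan4f were at 0. Only 6 of the 11 had more than 3 counts over the KO libraries of day 0 or of day 2. Among 33 interferon response genes, 7 rose and 4 fell (2 and 2 without the letter term), with a median log2 fold change of 0.09 (0.16 with low-count genes at their bounds). The higher calls were 3 without KO day 2 B, 4 without either KO day 0 A or KO day 0 B. Rsad2, an antiviral enzyme, rose from 1.90 and 3.16 to 5.97 and 13.2 CPM (1.88, adjusted p = 5.48e-05). Oas1a, which senses double-stranded RNA, fell from 8.62 and 5.13 to 2.42 and 1.46 CPM (-1.81, adjusted p = 5.65e-06).

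Markers of other cell types were read in the same libraries. Among trophectoderm markers, 4 of 20 rose and 1 fell (2 and 1 without the letter term). Called either way were 25% of the list, against 29.5% of all genes tested. Cdx2, a defining factor, was at 0 in all 4 libraries. Members called higher numbered 1 without any of KO day 0 A, KO day 2 A, KO day 0 B, 2 without KO day 2 B. The list's summed levels were 209.8 and 245 CPM at day 0 and 523 and 585 CPM at day 2. Peg10, whose rise is given above, is on this list, and without it the sums were 196 and 225 CPM at day 0 and 158 and 177 CPM at day 2, so that the rest of the list summed lower at day 2. Tead4, a trophectoderm factor also expressed in other cells, fell from 84.8 and 92.2 to 33.3 and 42.4 CPM (-1.23, adjusted p = 5.93e-07). Of 20 primitive endoderm markers 6 were called higher and 4 lower (2 and 1 without the letter term), with Sox17 and Foxa2 at 0 in all 4. The list's summed levels were 735 and 1965 CPM at day 0 and 937 and 2593 CPM at day 2. Lower calls came to 2 without any of WT day 0 A, KO day 0 A, KO day 2 A, KO day 0 B, KO day 2 B. Apoe, an apolipoprotein made by several cell types, had 71.1 and 128 CPM at day 0 and 288 and 621 CPM at day 2 (log2 fold change 2.16, SE 0.149, adjusted p = 1.01e-07) and led this list. Of 16 genes of stratified epithelium, 3 rose and 3 fell (2 and 2 without the letter term), with summed levels of 461 and 422 CPM at day 0 and 309 and 319.97 CPM at day 2. For higher members the count was 1 without KO day 0 A. Krt13, a keratin of stratified epithelium, had 18.1 and 9.92 CPM at day 0 and 0.463 and 0.662 CPM at day 2 (log2 fold change -4.64, SE 0.438, adjusted p = 2.12e-06), and Krtdap 11.004 and 8.79 CPM at day 0 and 1.08 and 0.596 CPM at day 2 (log2 fold change -3.56, SE 0.281, adjusted p = 3.78e-07), while Sfn, stratifin, rose from 5.55 and 7.65 to 19.3 and 16.1 CPM (1.41, adjusted p = 3.28e-05).

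Marker lists of immune, endothelial and blood, muscle, and fat, cartilage and bone cells held 9, 10, 7 and 9 tested genes, of which 1, 2, 1 and 3 rose and 1, 3, 1 and 1 fell. Called either way were 22.2%, 50%, 28.6% and 44.4% of them, against 29.5% of all genes tested. Without the letter term 0, 0, 1 and 1 were called higher and 0, 0, 0 and 1 lower. The immune and the endothelial higher calls were 0 without any of KO day 0 A, KO day 0 B, KO day 2 B. The endothelial lower calls were 0 without KO day 0 B and 1 without KO day 2 A, and the muscle lower call was lost without KO day 2 A. The sums went from 75.5 and 181 to 46.1 and 109 CPM for immune cells and from 86.6 and 126 to 49.7 and 85.9 CPM for endothelium and blood. For muscle they went from 8.67 and 5.03 to 4.84 and 3.71 CPM, and for fat, cartilage and bone from 32.8 and 58.4 to 21.3 and 42.1 CPM. Defining genes at 0 in all 4 libraries included Cd3e for T cells, Hbb-b1 for red cells, Myod1 and Myog for muscle and Pparg and Fabp4 for fat. The part of any such cells in the results above was not tested.

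**Figure D4:**
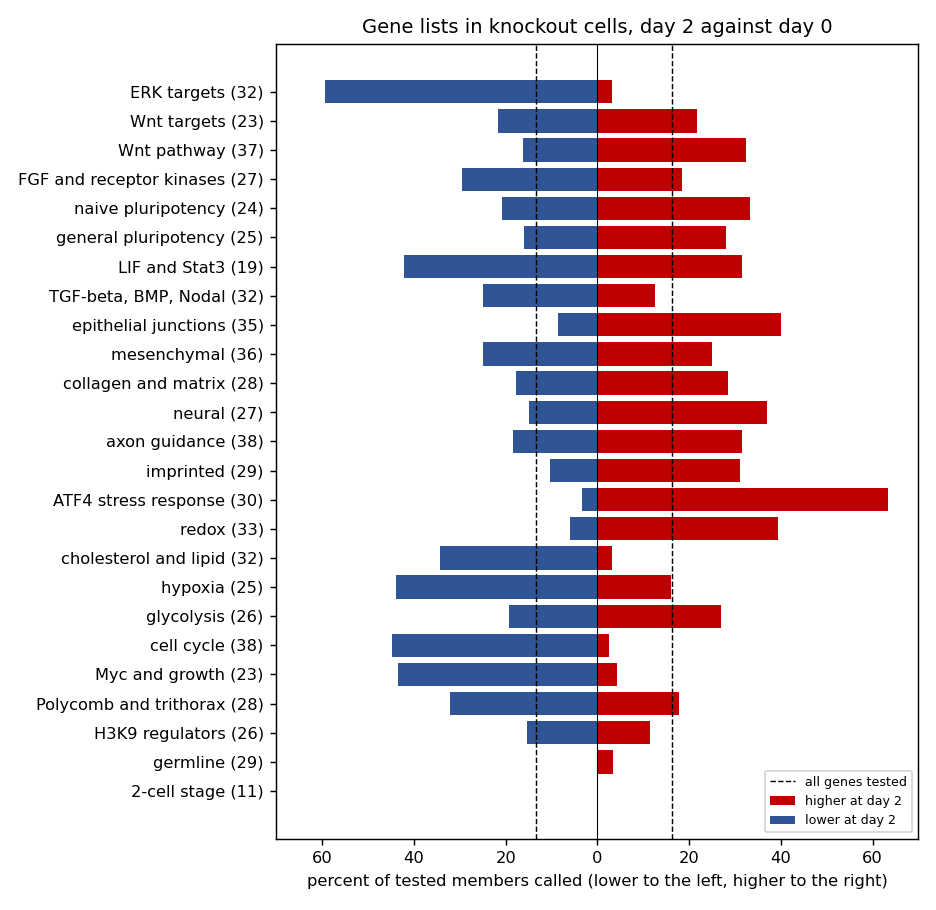
Percent of the tested members of each gene list called higher (red, to the right) or lower (blue, to the left) at day 2 against day 0 in KO cells, with the number tested in brackets and dashed lines at the shares over all genes tested, 16.2% higher and 13.3% lower. ERK targets reach farthest to the left and ATF4 and stress genes farthest to the right. The lists were chosen with earlier results of these data known.

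Among genes of at least 5 CPM on average, the largest rises beside those above were led by Ric3, a chaperone of acetylcholine receptors, with 1.02 and 1.63 CPM at day 0 and 76.9 and 162 CPM at day 2 (log2 fold change 6.46, SE 0.183, adjusted p = 6.28e-11). Ptn and Mdk, the growth factors pleiotrophin and midkine, had 0.243 and 0.444 CPM at day 0 and 18.1 and 27.9 CPM at day 2 and 2.43 and 2.27 CPM at day 0 and 41.4 and 49.4 CPM at day 2 (log2 fold changes 6.02 and 4.26, adjusted p = 2.67e-08 and 1.42e-09). This pair makes up a whole growth factor family, and both members rose. Igsf10, an immunoglobulin family gene, rose from 0.146 and 0.247 to 7.92 and 23.2 CPM (6.20, adjusted p = 3.32e-08). Slc40a1, the iron exporter ferroportin, rose from 1.70 and 2.07 to 46.2 and 64.3 CPM (4.86, adjusted p = 1.04e-10), and Ftl1, the light chain of the iron store ferritin, from 1663 and 1024 to 2572 and 1534 CPM (0.61, adjusted p = 0.00168, and 0.598 without the letter term). Adam12, a metalloprotease, went from 0.536 and 0.691 to 8.90 and 19.7 CPM, Il10, an anti-inflammatory cytokine, from 0.536 and 0.494 to 8.49 and 12.5 CPM, Pde3a, a phosphodiesterase, from 0.390 and 1.53 to 11.1 and 37.4 CPM, and Sp8, a zinc finger factor, from 0.341 and 0.592 to 13.4 and 8.47 CPM. Their log2 fold changes lay between 4.32 for Il10 and 4.58 for Pde3a. Mcam, an adhesion molecule and among the 8 genes that gained most CPM, rose from 47.8 and 101 to 241 and 617 CPM (2.48, adjusted p = 6.71e-08).

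The largest falls included Stac, an adaptor of calcium channels, from 10.6 and 11.2 to 0.257 and 0.0662 CPM (-5.92, adjusted p = 2.96e-08), and Tcerg1l, from 17.8 and 21.2 to 0.309 and 0.331 CPM (-5.89, adjusted p = 2.16e-09). Calcrl, the receptor of adrenomedullin and CGRP, had 136 and 182 CPM at day 0 and 3.04 and 5.76 CPM at day 2 (log2 fold change -5.21, SE 0.363, adjusted p = 1.11e-07). Serpina3n, a protease inhibitor, fell from 12.6 and 18.5 to 0.154 and 0.596 CPM (-5.42, adjusted p = 7.15e-07), and Pax7, a factor of muscle and neural crest progenitors, from 20.98 and 33.1 to 1.44 and 2.45 CPM (-3.80, adjusted p = 1.6e-08). In all 5 genes the day 2 libraries lay far below the day 0 libraries. Otop1, a proton channel, Vat1l, Nptx2, a neuronal pentraxin, and Cyp2s1, a cytochrome P450, fell by 4.02, 4.01, 3.80 and 3.81. In plain CPM, the amino acid carrier Slc38a5 was among the genes that lost most, from 872 and 1519 to 159.6 and 343 CPM (-2.28, adjusted p = 8.72e-07). Amd1 was called (-9.38, adjusted p = 0.00516, and 0.354 without the letter term) with 0.0974 and 54.2 CPM at day 0 and 0 and 0.0662 CPM at day 2, and the call was lost without KO day 0 B (adjusted p = 0.537) or KO day 2 B (0.818). The WT libraries had the same split, from 0.0399 and 26.1 to 0.0986 and 23.9 CPM. Amd1 has near-identical copies, and how the counting split their reads was not tested.

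Against the WT cells, the change from day 0 to day 2 differed for 1109 of 14324 genes (7.74%), 692 with the KO change higher (4.83%) and 417 lower (2.91%), in edgeR's test of the interaction of genotype and day with the letter term. Without the letter term 28 genes passed, all of them among the 1109. Leaving out 1 library gave 547 (KO day 0 A), 558 (KO day 0 B), 731 (KO day 2 B), 650 (WT day 0 B) or 594 (WT day 2 B). Of the 1109, 278 were called in both genotypes in 1 direction and differed in size, 111 were called in opposite directions, 380 were called in KO and not in WT, 331 in WT and not in KO, and 9 in neither. Of the 4225 genes called in KO, 2283 were called in the same direction in WT (54.0% of the KO calls and 52.9% of the 4318 WT calls). The WT libraries are separate from the KO libraries, but all share the letters and the fit.

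Some genes rose in KO and not, or less, in WT. Rgs8, a regulator of G protein signalling, rose in KO from 1.12 and 1.18 to 9.31 and 9.93 CPM and went in WT from 6.10 and 7.87 to 2.22 and 3.08 CPM (log2 fold changes 3.06 and -1.39; interaction 4.45, SE 0.332, adjusted p = 3.16e-06, and 0.0113 without the letter term). Armcx2 rose in KO from 0.730 and 1.04 to 15.8 and 18.2 CPM and in WT from 16.2 and 16.1 to 29.9 and 35.3 CPM (interaction 3.25, adjusted p = 2.44e-05, and 0.0136 without the letter term). Trap1a, an X-linked tumour antigen gene, rose in KO from 0.195 and 0.395 to 4.73 and 4.70 CPM and stayed in WT at a higher level, from 22.9 and 18.8 to 21.6 and 20.45 CPM (interaction 3.95, adjusted p = 0.00025, and 0.0249 without the letter term). Peg10 went in WT from 552 and 744 to 1859.5 and 1829 CPM, above its KO level at both days (interaction 3.01, adjusted p = 1.38e-06, and 0.029 without the letter term). The larger KO rise of Peg10 and Trap1a thus began from a lower level. Ptn rose more in KO (6.02 against 2.30; interaction 3.72, adjusted p = 0.00041, and 0.0481 without the letter term), from a start below WT to an end above it.

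Others rose in WT and not in KO. Igf2 rose in WT from 5.67 and 6.38 to 38.01 and 51.5 CPM (log2 fold change 2.88), against a small fall in KO (interaction -3.42, SE 0.184, adjusted p = 4.26e-07, and 0.0113 without the letter term). Lgals9, a galectin, rose in WT from 10.7 and 9.70 to 30.6 and 22.2 CPM and fell in KO from 7.25 and 5.58 to 1.44 and 1.39 CPM (interaction -3.55, adjusted p = 8.9e-06, and 0.0122 without the letter term). Chst1, a sulfotransferase, rose in WT from 3.15 and 3.81 to 22.3 and 32.6 CPM and was not called in KO, with 6.23 and 10.9 CPM at day 0 and 5.61 and 5.56 CPM at day 2 (adjusted p = 0.0709). Its KO fall passed when KO day 2 A (adjusted p = 0.0406), WT day 10 A (0.0455) or WT day 10 B (0.0438) was left out. The interaction for Chst1 was -3.52 (adjusted p = 1.57e-05, and 0.0301 without the letter term). Gata2, a factor of blood and trophoblast, rose in WT from 2.27 and 3.27 to 13.3 and 20.05 CPM and was not called in KO, with 0.779 and 0.790 CPM at day 0 and 0.412 and 0.596 CPM at day 2 (interaction -3.22, adjusted p = 0.000301, and 0.0483 without the letter term). At day 2 every WT library was above every KO library in these 4 genes.

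By list, the difference between the genotypes was uneven, in lists chosen with earlier results of these data known. The shares of tested members that differed, against 7.74% of all genes, ran from 0 of 26 H3K9 genes to 9 of 25 general pluripotency genes (36%), 7 of them with the higher change in KO. They came to 3 of 9 markers of fat, cartilage and bone (33.3%), 6 of 19 LIF pathway genes (31.6%), 8 of 27 neural genes (29.6%, 7 with the higher change in KO) and 8 of 29 imprinted genes (27.6%). All 8 differing ATF4 and stress genes of 30 (26.7%) and all 6 differing matrix genes of 28 (21.4%) had the higher change in KO. All 6 differing Wnt targets of 23 (26.1%) had the lower, and 1 of 32 ERK targets differed (3.12%). Without the letter term these counts were 1 for general pluripotency, 1 for neural and 2 for imprinted genes and 0 for the other lists just named. Mtap2 rose in KO by 3.01 and in WT by 0.48 (interaction adjusted p = 1.98e-05, 0.0122 without the letter term). Atf5 rose in KO and fell in WT (-0.78; interaction adjusted p = 3.16e-06, 0.116 without the letter term). For Dusp6 the log2 fold changes were -3.22 in KO and -3.03 in WT, a difference of -0.19 (SE 0.181), which did not pass (adjusted p = 0.653). Porcn fell in KO and was not called in WT (-0.31; interaction -1.63, adjusted p = 3.8e-05, 0.228 without the letter term). Lef1 fell in KO and rose in WT (0.95; interaction -2.16, adjusted p = 0.00125, 0.0597 without the letter term).

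**Figure D5:**
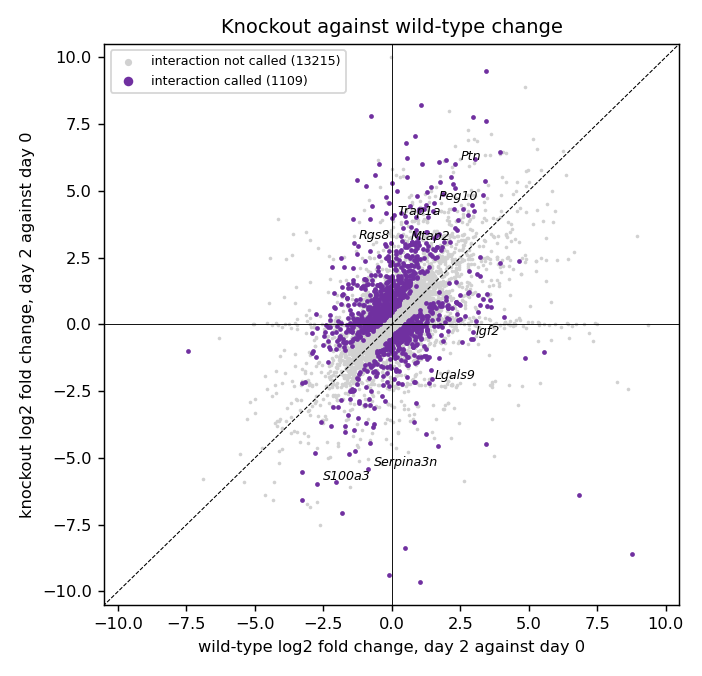
Log2 fold change of day 2 against day 0 in WT (x axis) and KO (y axis) for 14324 genes, each point a gene, with the dashed line at equal change. The 1109 genes whose change differed by genotype with the letter term are purple, Rgs8, Ptn and Peg10 among those above the line and Igf2, Lgals9 and S100a3 among those below it.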

How the data were processed

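Expected counts and TPM per gene were deposited by the authors, 1 file a library, made with Bowtie2 and RSEM on mm9 per the submitters' processing notes. Tool versions, annotation and strand handling were not given in the sources used here. Expected counts, 35.0% to 43.8% of which were not whole in a library, were rounded. The deposited TPM values were used for Kdm3b only.

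All 12 pre-iPSC libraries entered 1 fit with edgeR 4.0.16 in R 4.3.3: TMM scaling, edgeR's default low-count filter by group, 6 groups of genotype and day, and a term for the letter at days 0 and 2. Quasi-likelihood tests were adjusted by Benjamini-Hochberg over all 14324 genes, and a gene was called at an adjusted p under 0.05. The ESC library was not used. The letters were taken as pairs at days 0 and 2 because the rule for this comparison asks for it. The B minus A differences correlated between the 4 groups of days 0 and 2 at 0.741 to 0.812, against -0.061 to 0.0492 with day 10. Between KO day 0 and WT day 0 the correlation was 0.754. It thus shows an offset between letters shared by these groups, and cannot show which libraries were pairs. On counts simulated for this comparison, the test called 49, 44, 42 and 49 of 50 genes made to change by -2, -1, 1 and 2 on the log2 scale, and 14 of 13998 unchanged genes. The genes made to change had more than 50 fitted counts on average, and the simulation kept the fitted letter term and spread. It therefore cannot show whether the letter term is right, or how changes of genes with few counts are found.

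The 40 gene lists, the members and the rule for named genes were chosen with earlier results of these data known. Named were Kdm3b, the 15 largest changes each way of at least 5 CPM, up to 8 called and 4 uncalled genes per list, the 10 largest genotype differences each way and the 8 largest changes in CPM each way, and all called members where a count is spelled out, save for a few genes that are not reported here. Of 1114 list entries, 1107 matched by symbol or synonym. Fold changes of genes with 0 counts in a day are bounds against 3 counts over the group, and those with 1 to 3 counts have 95% exact intervals, which cover counting error only. Promoters are RefSeq windows on GRCm38.p6. Printed stretches come from the first listed window of a gene, or from the first with a match for the ATF4 and TCF elements. Alternatives were the letter term, the libraries in the fit, scaling, filter, DESeq2 1.42.0, a length offset and leaving out each library.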

Additional observations from a re-analysis of the deposited data

Results flagged for a closer look

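For 89 of the genes named above, the change from day 0 to day 2 differed between KO and WT cells by the interaction test of genotype and day, with edgeR and the letter term, and the values below are KO minus WT differences in log2 fold change. Of these, 10 also passed without the letter term, 54 were called in every fit that left out 1 of the 12 libraries, and the others lost the call in at least 1 such fit. For the 10 that passed both ways, the values were Rgs8 (4.45), Trap1a (3.95), Ptn (3.72), Armcx2 (3.25), Peg10 (3.01) and Mtap2 (2.54) where the KO change was higher. They were Lgals9 (-3.55), Chst1 (-3.52), Igf2 (-3.42) and Gata2 (-3.22) where it was lower.

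Called only with the letter term, and in every fit that left out a library, were higher changes in KO of Pon3 (4.91), Robo2 (4.66), Plagl1 (3.88), Sfrp4 (3.31), Adam12 (3.24), Il10 (3.15), Tgfbi (3.14), Ric3 (2.50), Sema6d (2.44), Met (2.34), Pcdh18 (2.29), Fbn1 (2.11), Tcfcp2l1 (1.997), Pim2 (1.98), Tdgf1 (1.89), Atf5 (1.88), Lifr (1.58), Pon2 (1.55), Slc40a1 (1.51), Col4a2 (1.47), Col4a1 (1.47), Klf5 (1.38), Mt2 (1.23), Sall1 (1.06), Efnb2 (1.04) and Spred1 (1.02). Lower changes of the same kind were Serpina3n (-4.57), S100a3 (-3.25), Otop1 (-2.31), Tnfrsf19 (-2.26), Lef1 (-2.16), Wnt5a (-1.97), Krt19 (-1.80), Tdh (-1.65), Oas1a (-1.64), Porcn (-1.63), Cyp2s1 (-1.57), Socs2 (-1.42), Ndrg1 (-1.12), Epas1 (-1.09), Apcdd1 (-0.96), Ntn1 (-0.87), Olig1 (-0.85) and Fgf4 (-0.85).

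Calls lost when 1 library or another was left out were, for the higher change in KO, Col3a1 (6.06), Gdnf (4.37), Gap43 (4.18), Igsf10 (3.15), Gdf3 (1.53), Aldh1l2 (1.12), Nid2 (1.06), Vldlr (1.02), Ppp1r9a (0.95), Gadd45a (0.94), Mcam (0.89), Trib3 (0.88), Mest (0.85), Sox1 (0.82), Sox2 (0.71), Socs3 (0.62), Gadd45b (0.60), Zscan10 (0.59), Pdgfc (0.58), Phgdh (0.56), Esrp1 (0.54) and Shmt2 (0.49). For the lower change they were Amd1 (-9.28), Dkk1 (-7.93), Bmp4 (-2.77), S100a4 (-2.24), Nptx2 (-2.08), S100a16 (-1.99), Fgf1 (-1.95), S100a6 (-0.83), Notum (-0.75), Mt1 (-0.69), Ezh1 (-0.67), Insig1 (-0.58) and Sod2 (-0.55). The values of Amd1, Col3a1, Dkk1, Gap43, Gdnf and Pon3 rest on 0 or 1 counts in 1 of the KO days and depend on how the fit treats small counts.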

How the results depend on the processing

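Most calls needed the pairing by letter. The count of 4225 genes became 915 with no replicate block, 1478 with the block over all days and, in an alternative chosen after seeing the data, 1218 with a transcript length offset in place of the letter term. The 1109 interaction genes became 28, 91 and 70 under the same settings. The cause was not tested. Leaving out 1 library gave 2319 to 4459 genes for the KO change, lowest without KO day 0 A, and 547 to 1316 for the interaction, also lowest without KO day 0 A. The other alternatives (a block per genotype, 8 or 4 libraries in the fit, RLE scaling, no or a stricter low-count filter, DESeq2, block with length offset) kept both counts within 1.5 times, at 3932 to 5827 and 1092 to 1450 genes. The interaction could not be had from the 4 KO libraries. A fit of these 4 alone called 11 named genes whose KO change the main fit did not call. They were Chst1, Dnmt3a, Dusp5, Jup, Pkp1, S100a13, Sqle, Tet1, Trp53, Tubb3 and Vim. Tet1 and Trp53 also passed with block and length offset, another alternative chosen after seeing the data. Of 246 genes named with a test, 0 had a called change that turned its sign in any of these settings. With no replicate block 75 of them lost the call, and with 1 library left out at most 12 did (KO day 0 A). Of the 89 genotype differences, 79 were lost with no replicate block and up to 26 with 1 library left out (KO day 0 B). In a left-out fit the lone library of its day is assumed to vary like the other groups. Depth limits the genes with few counts at day 0, for which only bounds or wide intervals are given.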
